A study of Rattus norvegicus with 12 samples.

Results

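Fos, Egr1 and Jun are 3 immediate early genes among the 32545 Ensembl rat genes measured in the right trigeminal ganglion. They were chosen by identifier (ENSRNOG00000008015, ENSRNOG00000019422 and ENSRNOG00000026293), and all 3 were among the 14781 genes tested. The 12 libraries, 4 groups of 3, came from female rats of the Sprague Dawley strain, each with a capsule implanted for 1 week. Vehicle capsules were 100% cholesterol. The others held estradiol (E2) at 5%, named for diestrus, 20%, named for proestrus, or 40%, named as therapeutic. The ages of the rats, whether their ovaries were present, and the way the ganglia were dissected are not stated in the labels.

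Immediate early genes are transcribed within minutes of a stimulus, without new protein synthesis, when calcium and MAP kinase signals reach factors already bound at their promoters. Fos and Jun encode leucine zipper proteins that pair to form the transcription factor AP-1, and Egr1 encodes a zinc finger transcription factor. In sensory neurons Fos and Egr1 mark recent activity, and Jun is also known for its part in the response to nerve injury. Because they respond so quickly, their transcripts can also be set by what happens to the tissue between death and freezing. The series asks how E2 dose changes the response of trigeminal neurons to serotonin. For these genes the libraries can show whether levels differed between doses by more than they differed among libraries of 1 group, and whether the 3 genes moved together from library to library.

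No difference between doses was detected for any of the 3 genes. Fos averaged 1.62 times the vehicle mean at 5% E2, with no overlap between those groups. Of all tested genes, 4.51% were separated in the same way and direction. Group means of Fos at 20% and 40% E2 were within 1 SD of that of vehicle. The Fos difference at 5% E2 had the smallest unadjusted p of the 27 tests (0.0507, adjusted p = 0.889 by limma-trend). The smallest adjusted p (0.772) was that of Jun for the mean of the doses against vehicle. Group means of Egr1 and Jun at every dose were below the vehicle mean, and each of these groups overlapped vehicle. Within groups, no pair of the 3 genes covaried past the threshold, and r of Fos and Egr1 was 0.03.

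Depth was 13281981 to 16978830 fragments per library. Vehicle replicate 1 stood apart from the other 11 libraries over all tested genes, at a mean root mean square distance of 0.497 (log2 scale) against 0.427 to 0.455. This library had the greatest depth but the fewest genes above 0, 17843 against 18112 to 18836 in the others. It also held the lowest Fos and the highest Jun level of the 12, while its Egr1 level was in the middle. Both extremes were close to the next library. Fos was at 0.904 FPKM (fragments scaled to gene length and depth) against 0.921, and Jun at 41.84 against 41.15. From its group mean this library deviated by −0.84 pooled within-group SD in Fos and 0.72 in Jun. Vehicle replicate 2 deviated by more, 0.89 and −1.17. The files do not pair identifiers with names, so markers of the ganglion's cell types and the other immediate early genes were not analysed here. In whole tissue, fewer cells of a type and less RNA per cell cannot be told apart.

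The 3 genes sat at very different levels. FPKM (fragments scaled to the length of the gene model and to depth) is a level per length, so it allows genes to be compared. Jun averaged 37.8 FPKM over the 12 libraries, above 84.0% of the tested genes. Egr1 averaged 2.88 FPKM, above 21.9% of them, and Fos 1.39 FPKM, above 10.2%. In single libraries Jun was 16.3 to 46.3 times the level of Fos and 10.2 to 21.5 times that of Egr1. Behind these levels were 22 to 56 fragments per library for Fos, 77 to 211 for Egr1 and 1470 to 2250 for Jun, so that counting error weighs most on Fos.

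**Figure D1:**
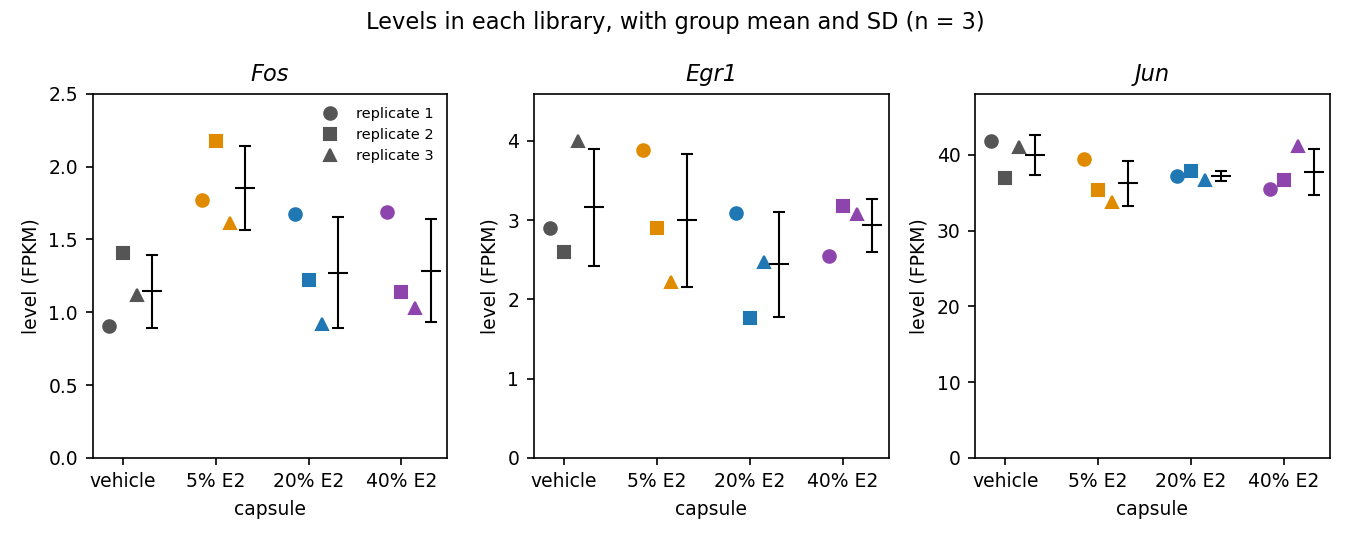
Levels of Fos, Egr1 and Jun (FPKM, each axis from 0) in each of the 12 libraries by capsule, marker shape giving the replicate number, with the group mean and SD (n = 3) in black. The 3 Fos values at 5% E2 sit between 1.61 and 2.18, all above the vehicle values of 0.904 to 1.41, while for Egr1 and Jun every pair of groups overlaps.

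Fos, the AP-1 subunit most often used as a mark of recent neuronal activity, was at 0.904, 1.41 and 1.12 FPKM in vehicle replicates 1 to 3. At 5% E2 it was at 1.77, 2.18 and 1.61 FPKM. At 20% E2 it was at 1.67, 1.22 and 0.921 FPKM, and at 40% E2 at 1.69, 1.14 and 1.03 FPKM. All 3 libraries at 5% E2 were above all 3 vehicle libraries, whereas at 20% and 40% E2 1 library of each group reached the range of 5% E2 and the other 2 lay within that of vehicle. Genes whose values at 5% E2 all lay above vehicle made up 4.51% of those tested.

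Group means of Fos were 1.14 ± 0.252 FPKM (SD, n = 3) in vehicle, 1.85 ± 0.290 at 5% E2, 1.27 ± 0.379 at 20% E2 and 1.28 ± 0.354 at 40% E2. The order from the lowest was therefore vehicle, 20%, 40% and 5% E2, and the lower 3 groups were separated by less than 1 SD. For 5% E2 against vehicle the difference was 0.41 ± 0.19 (SE) on the log2(FPKM + 1) scale, with an unadjusted p of 0.0507 and an adjusted p of 0.889 by limma-trend over all genes. That scale understates folds at such low levels. On the recovered fragments, limma's voom gave a fold of 1.64 (95% confidence interval 1.01 to 2.67, unadjusted p = 0.0474, adjusted p = 0.831). By limma-trend, 5.49% of the tested genes had an unadjusted p under 0.05 in this comparison, and 0% passed the adjusted threshold of 0.05.

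The Fos difference at 5% E2 rested on 139 fragments against 85 in vehicle. Scaled to depth this was 2.95 CPM (fragments scaled to depth alone, exact Poisson 95% interval 2.48 to 3.49) against 1.80 (1.44 to 2.22). These intervals cover counting error only and not the spread between libraries. Leaving out vehicle replicate 1, the library that stood apart, left a log2 difference of 0.33 (unadjusted p = 0.144, adjusted p = 0.998), and leaving out 5% E2 replicate 2, the highest, also left 0.33 (unadjusted p = 0.154). The other doses gave little against vehicle: 0.08 at 20% E2 and 0.09 at 40% E2 on the log2 scale, with voom folds of 1.09 (0.639 to 1.87) and 1.13 (0.656 to 1.95). These intervals allow changes of more than 1.5-fold in either direction.

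Compared with 5% E2 directly, Fos at 20% E2 differed by −0.34 (log2, limma adjusted p = 0.975) and at 40% E2 by −0.33 (adjusted p = 0.968). The voom folds were 0.666 (0.411 to 1.08) and 0.690 (0.421 to 1.13). Neither difference passed the threshold. Along the dose Fos had a slope of −0.09 ± 0.19 (SE) per 40% of E2 (log2, limma adjusted p = 0.959), from −0.02 without 40% E2 replicate 3 to −0.21 without 40% E2 replicate 1. The F-test over the 4 groups gave an unadjusted p of 0.190 and an adjusted p of 0.964.

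**Figure D2:**
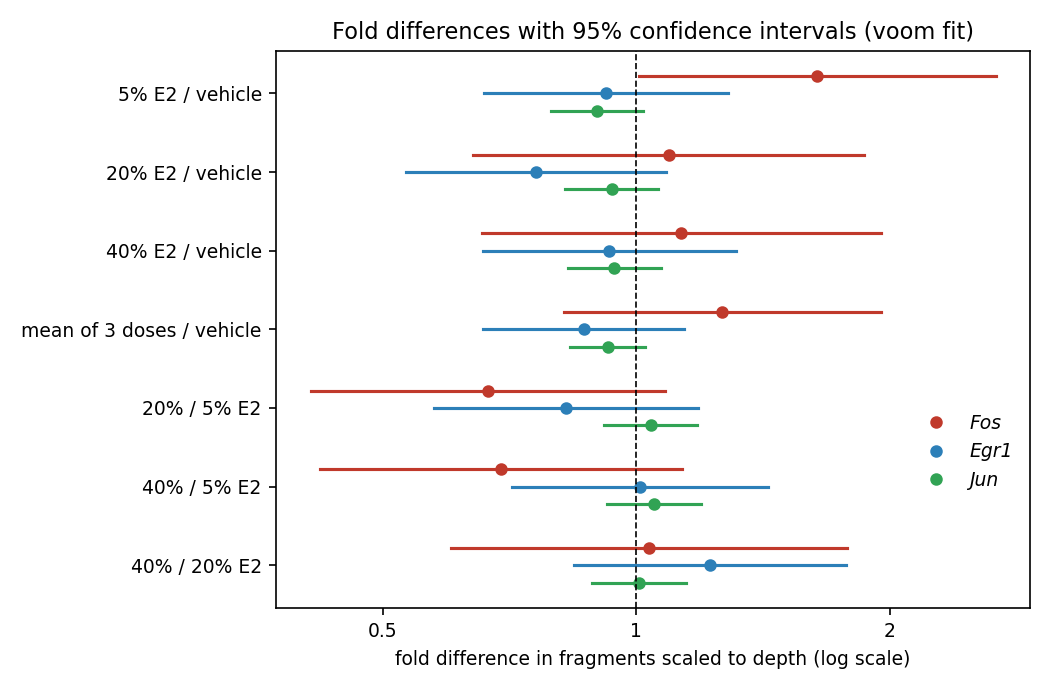
Fold differences of Fos, Egr1 and Jun in fragments scaled to depth (log axis) for 7 comparisons of capsules, from limma's voom fit on recovered fragments; points are folds and lines their 95% confidence intervals, unadjusted for the number of genes. The interval of Fos at 5% E2 against vehicle starts at 1.01, and the other 20 intervals include 1 (dashed line).

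Egr1, the zinc finger factor, varied from library to library within each group. In vehicle it was at 2.90, 2.59 and 3.997 FPKM, and at 5% E2 at 3.89, 2.90 and 2.21 FPKM. At 20% E2 it was at 3.09, 1.77 and 2.47 FPKM, and at 40% E2 at 2.55, 3.17 and 3.08 FPKM. The highest value of the 12 was in vehicle replicate 3 and the lowest in 20% E2 replicate 2, and no 2 groups were free of overlap.

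Mean Egr1 levels were 3.16 ± 0.738 FPKM (SD, n = 3) in vehicle, 3.00 ± 0.841 at 5% E2, 2.44 ± 0.664 at 20% E2 and 2.93 ± 0.337 at 40% E2. From the lowest the order was 20%, 40%, 5% E2 and vehicle, and neighbours in it differed by less than the larger of their SDs. The widest gap was between 20% E2 and vehicle, a log2 difference of −0.28 ± 0.20 (SE) with an adjusted p of 0.851 by limma-trend and a voom fold of 0.760 (0.533 to 1.08). Leaving out 1 library moved that difference to between −0.13, without 20% E2 replicate 2, and −0.41, without 20% E2 replicate 1, and it was −0.14 without vehicle replicate 3. Over all genes tested in that comparison 0.00677% passed the threshold and 6.07% had an unadjusted p under 0.05. At 5% E2 the voom fold against vehicle was 0.920 (0.660 to 1.28), and at 40% E2 it was 0.929 (0.658 to 1.31). The small gap of these groups from vehicle depended on vehicle replicate 3. Without it the log2 difference from vehicle was 0.074 at 5% E2 and 0.067 at 40% E2, against −0.065 and −0.072 with it. The mean of the 3 doses, 20% E2 included, then differed from vehicle by 0.00031 (log2), against −0.14 with that library.

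Jun, the partner of Fos in AP-1, was the steadiest of the 3. It was at 41.8, 36.9 and 41.1 FPKM in vehicle and at 39.5, 35.4 and 33.8 FPKM at 5% E2. At 20% E2 it was at 37.2, 37.9 and 36.7 FPKM, and at 40% E2 at 35.5, 36.6 and 41.2 FPKM. The highest library was only 1.24 times the lowest, against 2.41 times for Fos and 2.26 times for Egr1. The 2 highest vehicle libraries were above every library at 5% and 20% E2, but vehicle replicate 2 lay among them.

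Jun averaged 40.0 ± 2.65 FPKM (SD, n = 3) in vehicle, 36.2 ± 2.95 at 5% E2, 37.2 ± 0.622 at 20% E2 and 37.7 ± 3.00 at 40% E2. The group means with E2 were thus between 5.53% and 9.31% below that of vehicle, and the 3 doses differed among themselves by less than 1 SD of 5% E2. Against vehicle the log2 difference was −0.14 ± 0.08 (SE) at 5% E2, −0.10 ± 0.08 at 20% E2 and −0.08 ± 0.08 at 40% E2, with adjusted p of 0.904, 0.890 and 0.898 by limma-trend. The mean of the 3 doses differed from vehicle by −0.11 ± 0.06 (adjusted p = 0.772), by −0.07 without vehicle replicate 1 and by −0.16 without vehicle replicate 2. Leaving out 1 library moved the difference at 5% E2 to between −0.09 and −0.20. The latter was without 5% E2 replicate 1 (limma-trend unadjusted p = 0.0343, adjusted p = 0.714). Jun had the narrowest bounds of the 3 genes. Its voom intervals against vehicle ran from 0.792 to 1.02 at 5% E2, 0.824 to 1.06 at 20% E2 and 0.830 to 1.07 at 40% E2. Each excludes a rise or a fall of 1.5-fold.

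In all, the 3 genes in 9 comparisons gave 27 tests, of which limma-trend called 0 at an adjusted p under 0.05 (smallest 0.772) and 0 had an unadjusted p under 0.05. Voom called 0, with 1 at an unadjusted p under 0.05 (Fos at 5% E2 against vehicle). With sample weights voom also called 0, and 2 had an unadjusted p under 0.05: Egr1 at 20% E2 against vehicle and Fos at 20% against 5% E2. Over all genes, the percentage passing the adjusted threshold by limma-trend was 0 for 40% E2 against vehicle, 0 for 20% against 5% E2, 0.00677 for 40% against 5% E2 and for 40% against 20% E2, 0.00677 for the mean of the doses against vehicle, and 0 for the F-test and the slope. The percentage with an unadjusted p under 0.05 was 5.87 for 40% E2 against vehicle, 4.48 for 20% against 5% E2, 4.51 for 40% against 5% E2, 2.9 for 40% against 20% E2, 6.72 for the mean of the doses, 4.79 for the F-test and 5.96 for the slope. The 3 E2 groups were compared with the same 3 vehicle libraries, so their differences from vehicle are not independent.

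How much of each gene's variation lay between groups was set against all tested genes as a description. Between-group differences made up 49.8% of the sum of squares of Fos, 20.9% of that of Egr1 and 30.5% of that of Jun, where the median tested gene had 25.3%. The share of Fos was higher than that of 88.0% of tested genes. These shares depended on single libraries. That of Fos ranged from 34.5% without 5% E2 replicate 2 to 62.8% without 20% E2 replicate 1. The share of Egr1 ranged from 5.45% without 20% E2 replicate 2 to 37.0% without 20% E2 replicate 1, and that of Jun from 18.1% without vehicle replicate 1 to 51.8% without 5% E2 replicate 1.

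The spread within groups was then compared with what counting alone would give. The pooled within-group SD of log2(FPKM + 1) was 0.20 for Fos, 0.25 for Egr1 and 0.09 for Jun, with 8 degrees of freedom. The added 1 lowers the SD most at low levels: on log2 FPKM without it the SDs were 0.35, 0.34 and 0.095. Fos was therefore not less variable than Egr1 on that scale. For log2(FPKM + 1), counting error at the recovered fragment numbers would give 0.15, 0.09 and 0.03. Counting error alone was therefore as large as 55.3% of the within-group variance of Fos, against 13.8% for Egr1 and 13.3% for Jun. The observed SD was 2.69 times the counting SD for Egr1, 2.74 times for Jun and 1.34 times for Fos. It may hold differences between rats, dissection and library preparation, which cannot be told apart, and the labels do not tie each library to a rat. Among genes within 1.5-fold of the same mean level, the median SD was 0.28 for the 1808 genes around Fos, 0.22 for the 2158 around Egr1 and 0.11 for the 2093 around Jun. Fos and Jun were less variable than most genes at their level (26.1% and 30.8% had a smaller SD), and Egr1 was near the middle (59.5%). The genes were matched by FPKM and not by fragments, so their counting error can differ, which bears most on Fos.

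**Figure D3:**
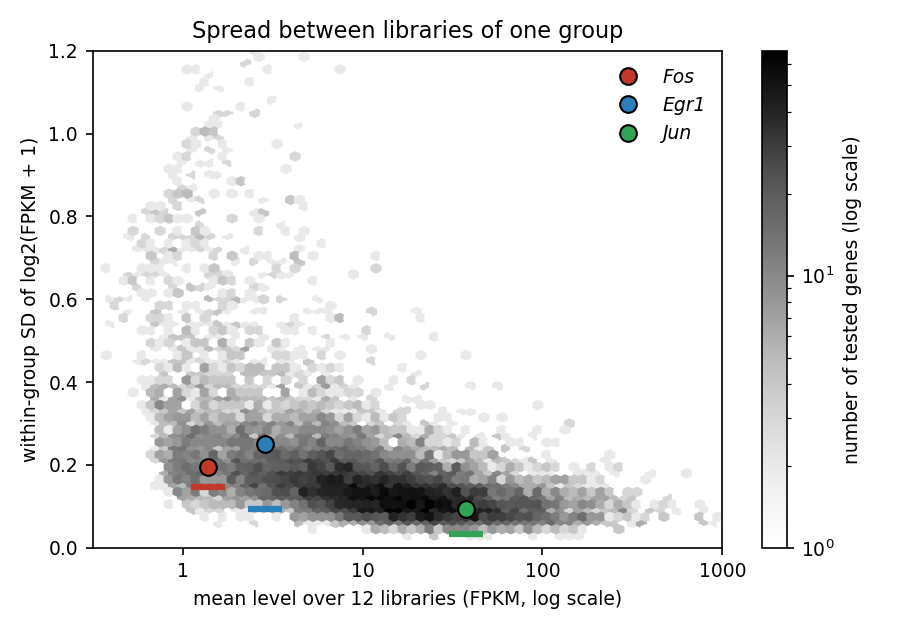
Within-group SD of log2(FPKM + 1) against mean level (FPKM, log axis) for the tested genes (grey, darker where more genes fall, 149 outside the axes), with Fos, Egr1 and Jun as coloured points and the SD from counting error alone as a bar of the same colour. Fos at 0.20 lies close to its counting bar at 0.15, while Egr1 (0.25 against 0.09) and Jun (0.09 against 0.03) lie well above theirs.

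Covariation was examined within groups, where all libraries had the same capsule, by correlating the deviations of each library from its group mean. The labels give no measure of tissue handling, and its part in these values was not tested. No relation of Fos to Egr1 was detected, with Pearson r = 0.03 and Spearman rho = 0.01 over the 12 libraries (exact permutation within groups, two-sided, p = 0.938 and 0.981). Egr1 and Jun had r = 0.55 and rho = 0.55 (p = 0.108 and 0.130), and Fos and Jun r = −0.43 and rho = −0.34 (p = 0.208 and 0.311). Adjusted over the 3 pairs, the p-values of r were 0.938, 0.311 and 0.311. The r of Fos and Jun became −0.27 without 40% E2 replicate 1 and −0.29 without 40% E2 replicate 3. That of Egr1 and Jun became 0.35 without 5% E2 replicate 1.

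With group differences left in, r was 0.04 for Fos and Egr1, −0.57 for Fos and Jun and 0.52 for Egr1 and Jun (permutation p = 0.889, 0.0539 and 0.0856 with 100000 permutations, adjusted p = 0.889, 0.128 and 0.128). Spearman's rho was −0.01, −0.55 and 0.46 (p = 0.991, 0.0700 and 0.134). Fos and Jun lay on opposite sides of their group means in 9 of the 12 libraries, against 8 for Fos and Egr1 and 5 for Egr1 and Jun. These counts were not tested. Without vehicle replicate 1 and 5% E2 replicate 2, the libraries farthest from the median of Fos, r of Fos and Jun became −0.38 (permutation p = 0.273) and −0.33 within groups (exact permutation p = 0.382), so that its size rested in part on those libraries. That of Fos and Egr1 became 0.05 (permutation p = 0.880). Without vehicle replicate 3 and 20% E2 replicate 2, the libraries farthest from the median of Egr1, the within-group r of Egr1 and Jun became 0.75 (exact permutation p = 0.0486, unadjusted) and rho 0.73 (p = 0.0625). Over all libraries without those 2, r was 0.59 (permutation p = 0.0708).

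**Figure D4:**
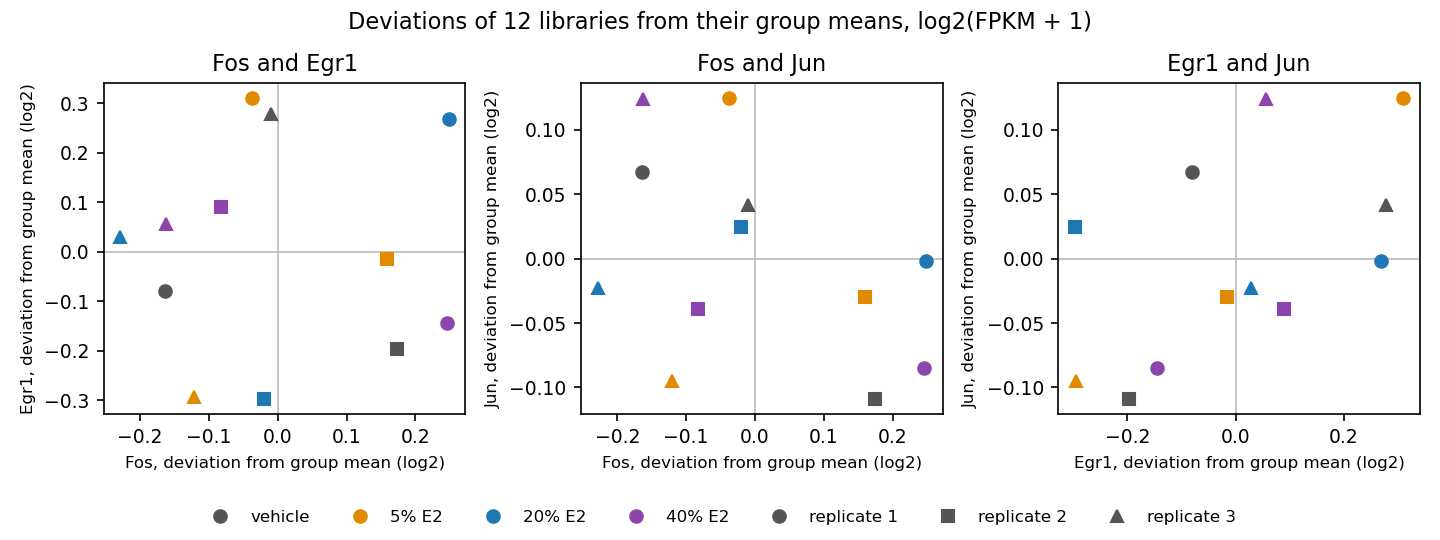
Deviations of the 12 libraries from their group means on the log2(FPKM + 1) scale, for each pair of Fos, Egr1 and Jun, coloured by capsule with the marker giving the replicate number. Points for Fos and Egr1 fill all 4 quadrants (r = 0.03), those for Egr1 and Jun lean upward (r = 0.55) and those for Fos and Jun downward (r = −0.43), with no adjusted p below 0.311.

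Library by library, the sides of their group means on which the 3 genes stood were counted, with no test and no comparison with other genes. In 0 libraries were all 3 above, and in 1, 5% E2 replicate 3, all 3 were below. In the other 11 at least 1 gene was on each side. Vehicle replicate 1 deviated by −0.16 in Fos, −0.08 in Egr1 and 0.07 in Jun (log2). Of the replicates with the highest Fos in their groups, vehicle replicate 2 and 40% E2 replicate 1 had the lowest Egr1 and the lowest Jun of their groups. In 20% E2 replicate 1 the highest Fos came with the highest Egr1 and the middle Jun of the group. In 5% E2 replicate 2 it came with the middle Egr1 and the middle Jun. The 5% E2 group, where all Fos values lay above vehicle, held the 2 lowest Jun values, in replicates 2 and 3 (ranked 11 and 12 of 12). The former, 35.40 FPKM, was close to the 35.46 of 40% E2 replicate 1. Replicate 1 of the 5% E2 group went the other way, with Fos ranked 2 and Jun ranked 4 from the highest.

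The same deviations were correlated with those of every other tested gene, to see how near the 3 genes stood to one another. Among the 14780 other genes, Egr1 ranked 7171 and Jun 13144 by their r with Fos. By r with Egr1, Jun ranked 720, so that 4.86% of genes were more like Egr1 than Jun was. By r with Jun, Egr1 ranked 864 (5.84% more like it). The highest r of any gene with each member was 0.959 for Fos, 0.936 for Egr1 and 0.955 for Jun.

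The genes most like the mean of the 3 standardised members were known by identifier only. They were picked for the highest r over the tested genes, so their r is high by selection and was not tested. ENSRNOG00000011263 had r = 0.94 with that mean over the 12 libraries, and its level ranged from 0.473 to 2.69 FPKM (7 to 43 fragments). ENSRNOG00000017602 also had r = 0.94, with levels from 11.5 to 15.6 FPKM. Both were closer to Egr1 (r = 0.90 and 0.86) than to Jun (0.62 and 0.51) or Fos (0.19 and 0.35). Egr1 itself had r = 0.87 with the mean of the members, Jun 0.62 and Fos 0.33, so that the mean mostly followed Egr1.

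The ratio of the AP-1 partners was taken within each library and was not tested. Jun's level per length was 26.3 to 46.3 times that of Fos in vehicle (mean 36.4 ± 10.03, SD, n = 3) and 16.3 to 22.3 times at 5% E2 (mean 19.8 ± 3.17). At 20% E2 it was 22.2 to 39.8 times and at 40% E2 21.0 to 40.1 times. The vehicle and 5% E2 ranges did not overlap. This restates the separation of Fos, the denominator, between those groups, of a kind that 4.51% of tested genes had in the same direction. The ratio of Jun to Egr1 overlapped between all groups, from 10.3 to 14.4 in vehicle, 10.2 to 15.3 at 5% E2, 12.03 to 21.5 at 20% E2 and 11.5 to 13.9 at 40% E2.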

How the data were processed

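The deposited per-library values are FPKM computed by the authors, per the names of the deposited files. Per the submitters' processing notes, HISAT2, featureCounts, DESeq2, fastp and CASAVA were used. Genome build, annotation and strand setting: not given in the sources used here, so a gene's value may include reads of a gene that overlaps it or lies antisense. The 3 symbols come with the identifiers that define the set. None of the 32545 identifiers matched the 47357 genes of the RefSeq table (assembly GRCr8), so the lists and markers planned by symbol were not analysed here, and no promoter was either. The genes, lists and tests were chosen with earlier results of these data known.

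Whole fragments were recovered from the FPKM, which are fragments divided by gene length and a library denominator (21071 of 21071 genes above 0 in 2 or more libraries came out within 0.0001 of a whole number, a little more for large numbers; largest deviation 8.99e-05). Fragments are the smallest whole numbers that fit and cover counting error only. Genes at 1 FPKM or more in at least 3 libraries were tested with limma 3.58.1 (R 4.3.3) on log2(FPKM + 1), with a trended, robust variance, all 12 libraries in 1 fit and Benjamini-Hochberg adjustment over all genes, and a threshold of 0.05. The fit and the recovery were tested on simulated data. Voom on recovered fragments was an alternative and gives the folds and their intervals. Correlations used permutation tests (scipy 1.17.1). Named genes were the members and, by r with their mean, 2 others. Every 2 libraries of a group differed by more than sampling noise (chi-square of at least 7.48 per degree of freedom). Nothing in the labels ties each sample to an animal, so the p-values reflect only how these samples vary. No pairing of libraries across groups by replicate number was detected, as the closing section shows.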

Additional observations from a re-analysis of the deposited data

How the results depend on the processing

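None of the 585 values of the 3 genes recomputed under alternatives passed the adjusted threshold (smallest adjusted p = 0.561), and 21 of them changed sign. These sign changes fell in 12 of the 27 results. The widest of the 12 in the main fit was −0.14 (log2), that of Egr1 for the mean of the doses against vehicle. Fos at 20% E2 against vehicle was −0.0065 with array weights and −0.024 with weighted voom, and Egr1 at 40% against 5% E2 was 0.014 with voom. Leaving out 1 library at a time, log2 differences that crossed 0 ranged from −0.047 to 0.19 for Fos at 20% E2 and −0.035 to 0.17 at 40% E2 against vehicle, and from −0.11 to 0.14 at 40% against 20% E2. For Egr1 they ranged from −0.22 to 0.082 at 5% E2, −0.17 to 0.067 at 40% E2 and −0.24 to 0.00031 for the mean of the doses against vehicle, −0.15 to 0.15 for 40% against 5% E2, and −0.16 to 0.011 for the slope. For Jun they ranged from −0.0061 to 0.10 for 20% against 5% E2, −0.0047 to 0.12 for 40% against 5% E2, −0.046 to 0.059 for 40% against 20% E2 and −0.093 to 0.0062 for the slope. With 1 library left out, Fos at 5% E2 against vehicle stayed between 0.33 and 0.50 (limma-trend unadjusted p 0.0393 to 0.154). Over its 22 alternatives, by limma-trend or voom, the unadjusted p ran from 0.0333 (limma-trend, no filter) to 0.154. In 6 of them it was under 0.05, and the lowest adjusted p was 0.590. The cause of these changes was not tested.

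The r of Fos and Egr1 ranged from −0.11 to 0.18 over all libraries and from −0.31 to 0.20 within groups when 1 library was left out, and without vehicle replicate 1 and 5% E2 replicate 2 it was −0.014 within groups. That of Fos and Jun ranged from −0.69 (without 5% E2 replicate 1, permutation p = 0.0209, adjusted p = 0.0626) to −0.46 over all libraries and from −0.63 to −0.27 within groups. That of Egr1 and Jun within groups ranged from 0.35 to 0.72, and was 0.75 without vehicle replicate 3 and 20% E2 replicate 2.

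No pairing by replicate number was detected. Libraries with the same number in other groups had correlations of deviations from −0.05 to 0.08 (mean 0.01). Libraries with other numbers had −0.11 to 0.10, and 4 of 12 correlated best with their own number. These values cannot show whether libraries of the same number were handled together. With the replicate block, calls among all genes were 0 for 20% E2 against vehicle, 40% against 20% E2 and the mean of the doses against vehicle, where the fit without it gave 1 each, and Fos at 5% E2 had an adjusted p of 0.828. The counts over all genes also became 0 for 20% E2 against vehicle with a pseudocount of 0.1, no filter, either voom fit or the compared groups alone. They became 0 for 40% against 5% E2 with no filter, unweighted voom or the compared groups alone, 0 for 40% against 20% E2 with no filter, and 0 for the mean of the doses with a pseudocount of 0.1, no filter, array weights or either voom fit. They became 1 for 40% E2 against vehicle with the compared groups alone and 1 for the F-test with either voom fit. Leaving out 1 library gave 0 to 1 calls for 5% E2, 0 to 2 for 20% E2, 0 to 1 for 40% E2 and 0 to 1 for the mean of the doses against vehicle, 0 to 5 for 20% against 5% E2, 0 to 1 for 40% against 5% E2, 0 to 2 for 40% against 20% E2 and 0 to 5 for the F-test, none of them a member.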
